A study of Homo sapiens with 6 samples.

Results

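The miR-125a sponge arrays were set against the pLKO control arrays in HEL and SET2, which are human acute myeloid leukemia cell lines. The comparison took the arrays whose treatment label names the sponge or the control, and so used 4 of the 6 arrays of the series. HEL and SET2 both carry an activating JAK2 mutation, and both are used as models of myeloid disease with erythroid and megakaryocytic features. The 4 arrays came from sponge-transduced HEL, sponge-transduced SET2, pLKO-transduced HEL and pLKO-transduced SET2 cells. All of them were infected with lentivirus and kept in puromycin for 96 h before total RNA was taken, so viral infection and drug selection were common to both groups. The remaining 2 arrays held IGF1R shRNA in each line and are given below only where they bear on a sponge value. Each line and treatment had 1 array, so the 2 lines served as the 2 replicates. The labels state neither separate cultures nor the number of clones, so p-values measure only the spread between these arrays, which may be technical. The treatment label reads sponge, whereas the source label of the same arrays reads miR125a-transduced without that word. The sponge's backbone and the arm of the microRNA it binds are not given in the sources used here. Any difference that comes with the sponge's own vector and any difference that comes with binding of the microRNA cannot be told apart in this design.

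MicroRNAs are short RNAs that sit in an Argonaute protein and lower the level and translation of messenger RNAs whose 3′ untranslated region pairs with the microRNA's seed. A sponge is a transcript with many binding sites for a microRNA, which occupies the microRNA and leaves its usual targets free. The miR-125 family is known in blood for effects on stem cell number and on myeloid leukemia, through targets such as pro-apoptotic BAK1, the ubiquitin-editing enzyme TNFAIP3 and the RNA-binding protein LIN28A. The title of the study concerns AIRAPL, the protein of ZFAND2B, a proteasome-associated zinc finger protein, and its link to IGF-1 signalling.

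The sequences of MIR125A are shown because a sponge acts through them. The gene lies on chromosome 19 of GRCh38.p14, plus strand, and the RefSeq hairpin runs from 51693254 to 51693339. Capitals mark the seed, bases 2 to 8, in each mature sequence.
hsa-miR-125a-5p: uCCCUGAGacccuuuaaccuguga
hsa-miR-125a-3p: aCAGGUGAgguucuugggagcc
hsa-miR-125b-5p: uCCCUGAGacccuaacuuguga
hsa-miR-4319: uCCCUGAGcaaagccac
The 5p arm occupies chr19:51693268-51693291 and the 3p arm chr19:51693306-51693327. The seed of the 5p arm, CCCUGAG, was shared by 3 mature names from 4 loci in the RefSeq table, the others being miR-125b-5p from chr11:122099809-122099830 (minus strand) and chr21:16590253-16590274 (plus strand), and miR-4319 from chr18:44970140-44970156 (minus strand). The seed of the 3p arm, CAGGUGA, was held by miR-125a-3p alone. The complementary sites in a target would read CUCAGGG for the 5p seed and UCACCUG for the 3p seed. Transcript sequences were not used here, so no target was scanned for these sites.

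The deposited values are log2 signals of 352859 probe sets on GeneChip Human Gene 2.0 ST arrays, which measure long RNAs with several probe sets along each gene. The 6 arrays had medians between 5.69 and 5.75, and the values ran from 1.61 to 13.99. Averaged over the probe sets with a single gene symbol, 22320 genes were measured, each by 9.5 probe sets at the median, and 2618 by 1 probe set. Across genes, the sponge and control arrays correlated at r = 0.991 in HEL and 0.993 in SET2, whereas the lines correlated with each other at 0.932 under the sponge and 0.931 in the control. Defining markers of the labelled cell type were present: GATA1 lay between 9.97 and 10.43 on all 6 arrays, ITGA2B between 10.23 and 10.83 and CD33 between 8.06 and 8.95. CD34 stood at 5.20 to 5.53 in HEL and 9.49 to 9.59 in SET2. The B-cell marker MS4A1 lay between 3.66 and 3.92 and the T-cell marker CD3D between 3.78 and 4.02. CDH5, an endothelial cadherin, stood at 7.55 in sponge HEL, 6.04 in IGF1R shRNA HEL and 7.49 in control HEL, but at 4.68 to 4.94 in SET2.

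No gene average differed between sponge and control past an adjusted p of 0.05 by limma with the cell line as a block (percent called 0% higher and 0% lower of 22320 genes). The smallest adjusted p was 0.103. At an unadjusted p under 0.05 there were 1096 genes, 4.91% of those tested, of which 471 were higher (2.11%) and 625 lower (2.8%). Evenly spread p-values would put 1116 genes there. The largest differences between sponge and control were instead carried by single probe sets, several of them with no listed gene, and these are described first. They were picked out after their values had been seen.

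Over all 352859 probe sets the directions were even, with 2260 at least 2-fold higher under the sponge in both lines (0.64%) and 2225 at least 2-fold lower (0.631%), most of them dim. Among the 77470 probe sets with a mean level of at least 8 over the 4 arrays, 24 were at least 2-fold higher in both lines (0.031%) and 1 was at least 2-fold lower (0.00129%). That filter includes the sponge arrays, and only 5 of the 24 also had a control mean of at least 8. The rest passed it through the sponge arrays alone, so the uneven count is not read as a direction. Where the mean of the sponge arrays or that of the control arrays had to reach 8, 35 were higher and 9 lower, and where that of the control arrays had to, 5 were higher and 9 lower. The 25 probe sets past 2-fold at a mean level of 8 serve here only to pick out bright profiles, and they held 21 distinct profiles, since some had identical values on every array. On 20 of the 25 probe sets both sponge arrays lay beyond all 4 other arrays, IGF1R shRNA included. Since the probe sets were chosen by their distance from control, this count was partly fixed in advance. Of the 25, 13 were also at least 2-fold apart from the IGF1R shRNA array of the same line in both lines, and they held 11 distinct profiles.

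The largest difference stood on probe sets 17118489, 17118611 and 17118623, which carried the same values and have no gene in the platform's annotation. They read 12.24 in sponge HEL and 13.40 in sponge SET2, against 6.16 and 5.89 in the IGF1R shRNA arrays and 6.40 and 6.08 in the control arrays, in the order HEL and SET2. Relative to control this was 57.3-fold in HEL and 159.8-fold in SET2. Differences of that size in HEL alone also occurred on probe sets that were dim on the other arrays. OTOG 16722506 was 61.4-fold lower in HEL, at 2.66 under the sponge against 8.60 in the control, but differed by only -0.95 in SET2. RHBDD1 16891638 and MYH15 16957126 were at -5.50 and -5.32 in HEL and at 0.27 and -0.51 in SET2. On the profile of 17118489 both sponge arrays stood far above the 4 other arrays, which lay between 5.89 and 6.40. Probe set 17118547 read 10.89 and 12.14 under the sponge, against 6.05 and 6.13 with IGF1R shRNA and 6.23 and 6.28 in the control. Probe set 17118541 read 10.64 and 11.43 under the sponge, against 6.04 and 6.19 with IGF1R shRNA and 6.10 and 6.12 in the control. The average differences from control were 6.58, 5.26 and 4.93 on the log2 scale for these profiles, each larger in SET2 than in HEL. Fitted over all 352859 probe sets by limma, none was called, and their adjusted p was 0.949 at unadjusted p of 0.000301, 0.000395 and 0.000216. Which transcript these probe sets read is not given in the sources used here.

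**Figure D1:**
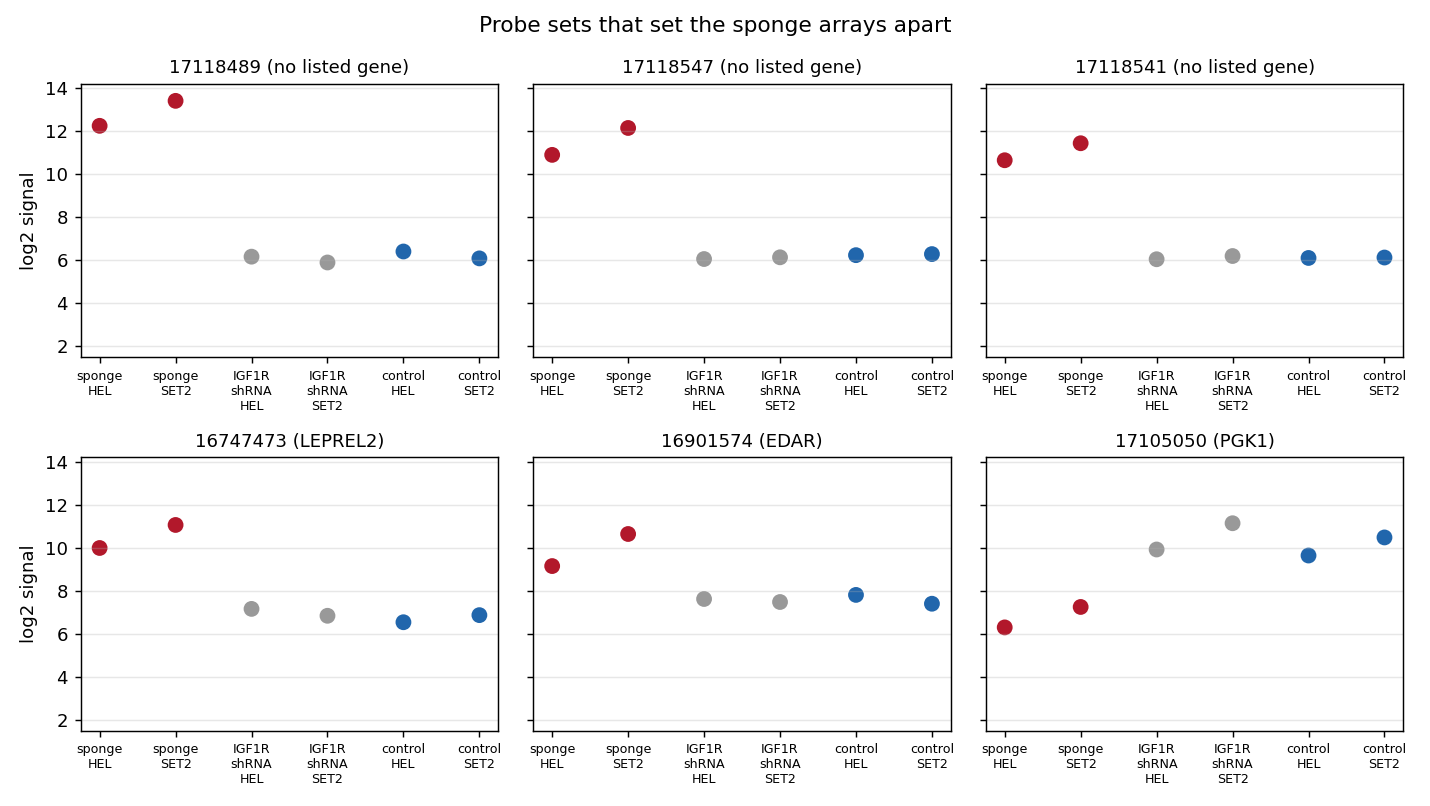
Log2 signal of 6 probe sets on each of the 6 arrays, with 1 point per array, sponge in red, IGF1R shRNA in grey and control in blue. On the 3 unlisted profiles, LEPREL2 16747473 and EDAR 16901574 both sponge arrays lie above the 4 others, and on PGK1 17105050 they lie below.

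The lower probe set among the 25 belonged to PGK1, the glycolytic enzyme phosphoglycerate kinase. Probe set 17105050 read 6.30 and 7.25 in sponge HEL and SET2, 9.92 and 11.14 in the IGF1R shRNA arrays and 9.64 and 10.48 in the control arrays. This was 10.1-fold lower in HEL and 9.38-fold lower in SET2 than control, with an average of -3.29 ± 0.24 (SE) on the log2 scale. Both sponge arrays lay below all 4 others. The 11 other probe sets of PGK1 did not follow it by that amount: their average was -0.04 in HEL and 0.18 in SET2, and 0.07 over both. That average in turn rested on the dim probe set 17105049, at 1.30 in HEL and 2.23 in SET2, and without it the 10 left averaged -0.10, with 5 lower in both lines and 0 higher. Averaged over all 12 probe sets PGK1 stood at -0.21. As background, the pLKO backbone carries the human PGK1 promoter in front of its puromycin resistance gene. Whether probe set 17105050 reads vector RNA was not tested.

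LEPREL2, now named P3H3, encodes a prolyl hydroxylase of collagen and held the listed probe set with the largest difference when all probe sets were ranked by the smaller of the 2 line changes. Its probe set 16747473 read 9.99 in sponge HEL and 11.06 in sponge SET2, against 7.16 and 6.84 with IGF1R shRNA and 6.54 and 6.87 in the control. This was 10.9-fold and 18.3-fold above control. The other 18 probe sets of LEPREL2 averaged -0.16 in HEL and -0.25 in SET2, and the gene average over all 19 was 0.01. The probe set was the only member of the gene with more than a 2-fold difference in the same direction in both lines, as the plot of PGK1 and LEPREL2 by probe set shows.

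**Figure D2:**
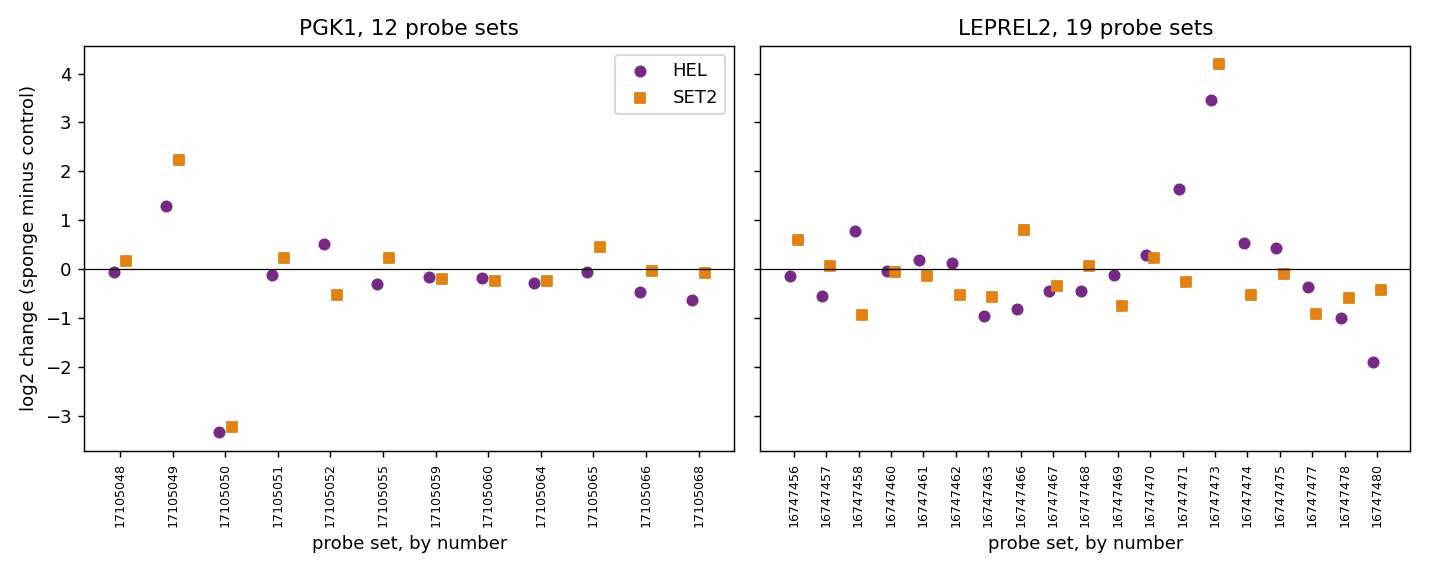
Log2 change (sponge minus control) of each single-symbol probe set of PGK1 (12 probe sets) and LEPREL2 (19 probe sets), ordered by probe set number, with HEL as circles and SET2 as squares. PGK1 17105050 stands at -3.34 and -3.23 and LEPREL2 16747473 at 3.45 and 4.19, apart from the other probe sets of their genes.

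The other listed probe sets of this kind were higher by smaller amounts, and the averages of their genes lay between -0.11 and 0.22. EDAR, a receptor of ectodermal development, read 9.15 and 10.64 on probe set 16901574 under the sponge, against 7.81 and 7.40 in the control. LPPR2 (now PLPPR2) read 9.31 and 9.81 on 16858462 under the sponge, against 7.43 and 7.45 in the control. SLAMF9, an immune cell surface protein, read 9.51 and 9.53 on 16695253 under the sponge, against 7.77 and 7.87 in the control. The gene averages of these genes were 0.16, 0.04 and 0.08, so a difference of more than 3-fold in SLAMF9's probe set left its 7-probe-set average near 0. RAPGEF4, an exchange factor activated by cyclic AMP, had 8.64 and 10.36 on 16887769 under the sponge, against 7.03 and 8.17 in the control. For NUCB2, EXOC6B and ITGA4 1 sponge array lay below the IGF1R shRNA array of its line. NUCB2 16722436 read 8.49 and 10.02 under the sponge, 8.02 and 10.24 with IGF1R shRNA and 7.28 and 8.76 in the control. The other unlisted profile, shared by 17026903, 17036869 and 17042130, read 8.97 and 8.93 under the sponge, 8.20 and 8.44 with IGF1R shRNA and 7.84 and 7.80 in the control.

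The genes with the smallest p in the fit over gene averages had 1 or 2 probe sets each. CNTF, a neurotrophic cytokine, read 4.92 in sponge HEL and 5.09 in sponge SET2, against 3.37 and 2.97 in the control arrays. Its average difference was 1.84 ± 0.16 (SE) with an adjusted p of 0.11 by limma. RAB3GAP2, a regulator of Rab GTPases, read 3.53 and 4.56 under the sponge, against 2.05 and 2.76 in the control. CNTF and RAB3GAP2 both lay low in the range of the arrays, and both were higher under the sponge than on all 4 other arrays except that RAB3GAP2 stood at 3.68 in IGF1R shRNA SET2, above sponge HEL. SENP3-EIF4A1, a read-through transcript of 2 neighbouring genes, read 4.07 and 4.70 under the sponge, against 5.59 and 6.14 in the control. It changed by -1.52 in HEL and by -1.44 in SET2. Its average of -1.48 became -0.83 without sponge HEL and -0.89 without control SET2. Those fits kept the IGF1R shRNA arrays, which stood at 7.22 in HEL and 5.34 in SET2. CCDC103 (now DNAAF19), a factor of ciliary dynein assembly, read 3.42 and 3.19 against 4.61 and 4.49. PALM2 averaged 6.49 and 7.05 under the sponge, against 5.25 and 5.94 in the control. The adjusted p of these 5 genes ran from 0.103 to 0.189, and all 5 passed 0.05 when the arrays were quantile normalized first, with adjusted p from 0.0118 to 0.0339 by limma. Over all genes, 4 were at least 2-fold higher in both lines (0.0179%) and 2 at least 2-fold lower (0.00896%); besides these 5 the only other was RNASE12, named after its values were seen, at 1.57 in HEL and 1.06 in SET2 with 1 probe set, which stood at 5.57 and 5.94 under the sponge and at 5.49 and 5.93 with IGF1R shRNA.

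The changes in HEL and SET2 were nearly unrelated across genes. Pearson's r between them was 0.018 over 22320 genes, and 0.0897 over the 8092 genes with at least 8 probe sets and a mean level at or above the median gene. Genes are not independent replicates, and each line's change rests on a single pair of arrays. The sign was the same in both lines for 50.7% of genes. The SD of the changes was 0.26 in HEL and 0.24 in SET2 for genes with a mean level under 4, and 0.18 and 0.13 for those at 9 or more, so dimmer genes scattered more. Medians over all genes were -0.01 for HEL and -0.03 for SET2, and 21.1% of genes were higher in both lines while 29.7% were lower in both.

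**Figure D3:**
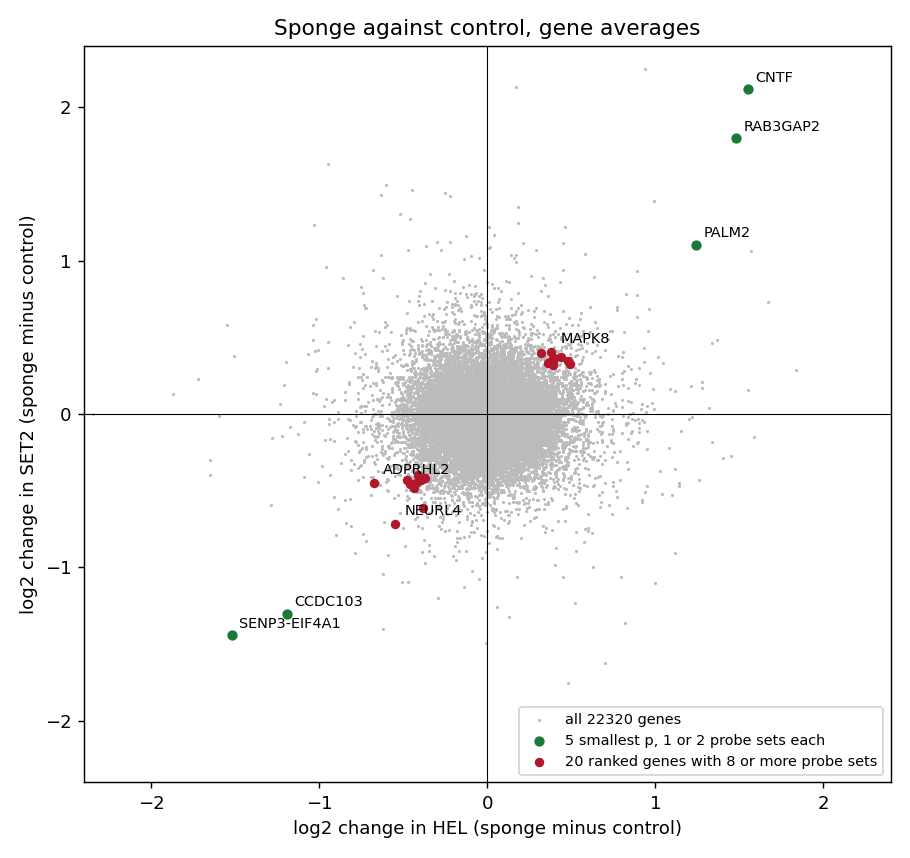
Log2 change (sponge minus control) in SET2 against that in HEL for 22320 gene averages (1 gene lies outside the plotted range). Green points are the 5 genes with the smallest p, which have 1 or 2 probe sets each, and red points are the 20 ranked genes with at least 8 probe sets; the cloud shows no slope.

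IGF1R and ZFAND2B, the genes that the study's title turns on, did not differ past the test under the sponge. IGF1R, the receptor tyrosine kinase for IGF-1, averaged 8.81 in sponge HEL and 8.37 in sponge SET2, 8.56 and 8.33 in the IGF1R shRNA arrays and 8.63 and 8.32 in the control arrays. Its average difference was 0.12 ± 0.12 (SE), with a 95% interval from -0.18 to 0.41 and an adjusted p of 0.951 by limma, and it was -0.005 on the brightest probe set. The IGF1R shRNA array lay below the control in HEL and just above it in SET2, so this gene average did not set the knockdown arrays apart in both lines. ZFAND2B averaged 6.64 and 5.68 under the sponge, against 6.80 and 5.67 in the control, a difference of -0.07 ± 0.13 (SE) with an interval from -0.37 to 0.23. Its sign differed between lines, at -0.16 in HEL and 0.01 in SET2, and turned to 0.025 on the brightest probe set. Of its 20 probe sets, 4 were higher and 6 lower in both lines.

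The host locus gave little to read. MIR125A had 1 probe set, at 3.14 and 3.30 under the sponge against 3.41 and 3.06 in the control. MIRLET7E stood at 5.89 and 5.93 under the sponge against 5.97 and 5.83 in the control, and MIR99B at 6.66 and 6.59 against 6.66 and 6.49. MIRLET7E and MIR99B, which share a cluster with MIR125A, overlapped between the groups, and the array does not measure mature microRNAs as such. MIR125B1 read 3.56 and 3.19 under the sponge, against 4.50 and 3.22 in the control, and MIR125B2 read 3.32 and 3.27 against 3.26 and 3.18. SPACA6, whose locus lies beside the cluster, had no probe set with a single symbol and was not analysed here.

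Targets published for the miR-125-5p seed did not shift as a group. Of 48 measured, 7 were higher in both lines and 11 lower in both, which is 14.6% and 22.9% beside 21.1% and 29.7% of all genes, and none was called. Their median difference was 0.003, against -0.02 for all genes, with 0.02 in HEL and -0.02 in SET2. LIN28A, which blocks let-7 maturation, had the highest average at 4.34 and 4.08 under the sponge against 4.03 and 3.90 in the control, a difference of 0.24 ± 0.12 (SE). LIN28A lay low in the range of the arrays, no higher than the liver marker ALB at 4.35 to 4.42 on these 4 arrays. Changes of genes at levels from 4 to 5 had an SD of 0.26 in HEL and 0.255 in SET2. BAK1, a pore-forming apoptosis effector, was at -0.03 in HEL and 0.37 in SET2. PPP1CA, a catalytic subunit of protein phosphatase, had the lowest average, at 7.68 and 7.63 under the sponge against 8.05 and 7.84 in the control, or -0.29 ± 0.12 (SE). BCL2L2, which protects from apoptosis, differed by -0.62 in HEL but by 0.14 in SET2. The lines thus gave opposite signs for 2 of the 4 targets at the ends of the list. TNFAIP3 was at 0.05 in HEL and -0.25 in SET2 and STAT3 at 0.12 and -0.05; these were named for their roles.

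**Figure D4:**
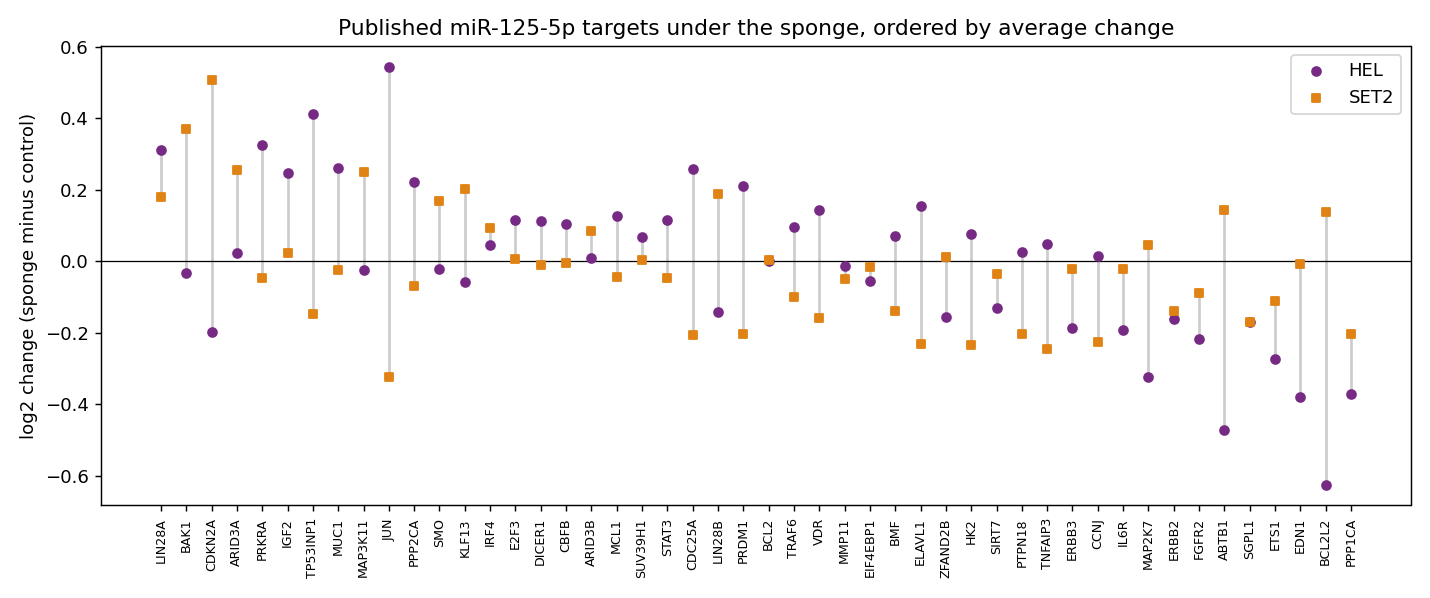
Log2 change (sponge minus control) of 48 published miR-125-5p targets in HEL (circles) and SET2 (squares), ordered by the average, with a grey line joining the lines of a gene. 7 genes lie above 0 in both lines and 11 below 0 in both.

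Genes of the microRNA machinery were more often higher than lower, with 8 of 24 higher in both lines (33.3%) and 3 lower (12.5%). Over all genes the shares were 21.1% and 29.7%. The median of the list was 0.03. None was called and none had an unadjusted p under 0.05. DDX5, an RNA helicase of the nuclear processing complex, had the highest average at 0.29 ± 0.15 (SE) on 1 probe set, with 6.78 and 7.36 under the sponge against 6.69 and 6.86 in the control. The Argonautes AGO1, AGO2, AGO3 and AGO4, which hold the microRNA and were named for that role, were at 0.10, -0.02, 0.22 and -0.01. DICER1 and DROSHA, the nucleases that cut the precursors, were at 0.05 and 0.01. DIS3L2, an exonuclease, was lowest at -0.19 ± 0.12 (SE).

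Genes of IGF-1 and insulin signalling showed no common direction, with 7 of 31 higher in both lines (22.6%), 11 lower (35.5%) and a median of 0.00. These shares lay near the 21.1% and 29.7% of all genes. The ligands IGF1 and IGF2 were at 0.11 and 0.14. IGFBP7, a binding protein of the IGF system, had the highest average with 6.84 and 9.30 under the sponge against 6.46 and 9.13 in the control, or 0.28 ± 0.13 (SE). GAB1, a docking adaptor, was at 0.26 ± 0.13 (SE). At the other end, PIK3CD, a catalytic subunit of phosphoinositide kinase, read 5.93 and 6.69 under the sponge against 6.28 and 6.88 in the control, and INSR, the insulin receptor, was at -0.20 ± 0.12 (SE). None of the 31 had an unadjusted p under 0.05.

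In the ZFAND family of zinc finger proteins, ZFAND6 and ZFAND4 had the highest averages, at 0.27 and 0.14, and ZFAND2A, a stress-induced relative of ZFAND2B, the lowest at -0.22 ± 0.13 (SE). ZFAND6 was at 0.53 in HEL and 0.001 in SET2. ZFAND5, ZFAND3 and ZFAND1 lay between -0.005 and 0.008. Genes of the proteasome, to which AIRAPL binds, were more often lower than higher. Of 34 measured, 17 were lower in both lines (50%) and 1 was higher (2.94%), beside 29.7% and 21.1% of all genes. Their median was -0.09 in HEL and -0.08 in SET2. The list had a median level of 8.32, and all genes from 8 to 9 had medians of 0.02 in HEL and -0.05 in SET2. PSMC3, an ATPase of the base, was lowest at 7.68 and 8.04 under the sponge against 8.03 and 8.32 in the control, or -0.31 ± 0.12 (SE), and PSMB1, a core subunit, was at -0.29 ± 0.15 (SE). None was called, and PSMC3 was the only member with an unadjusted p under 0.05.

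**Figure D5:**
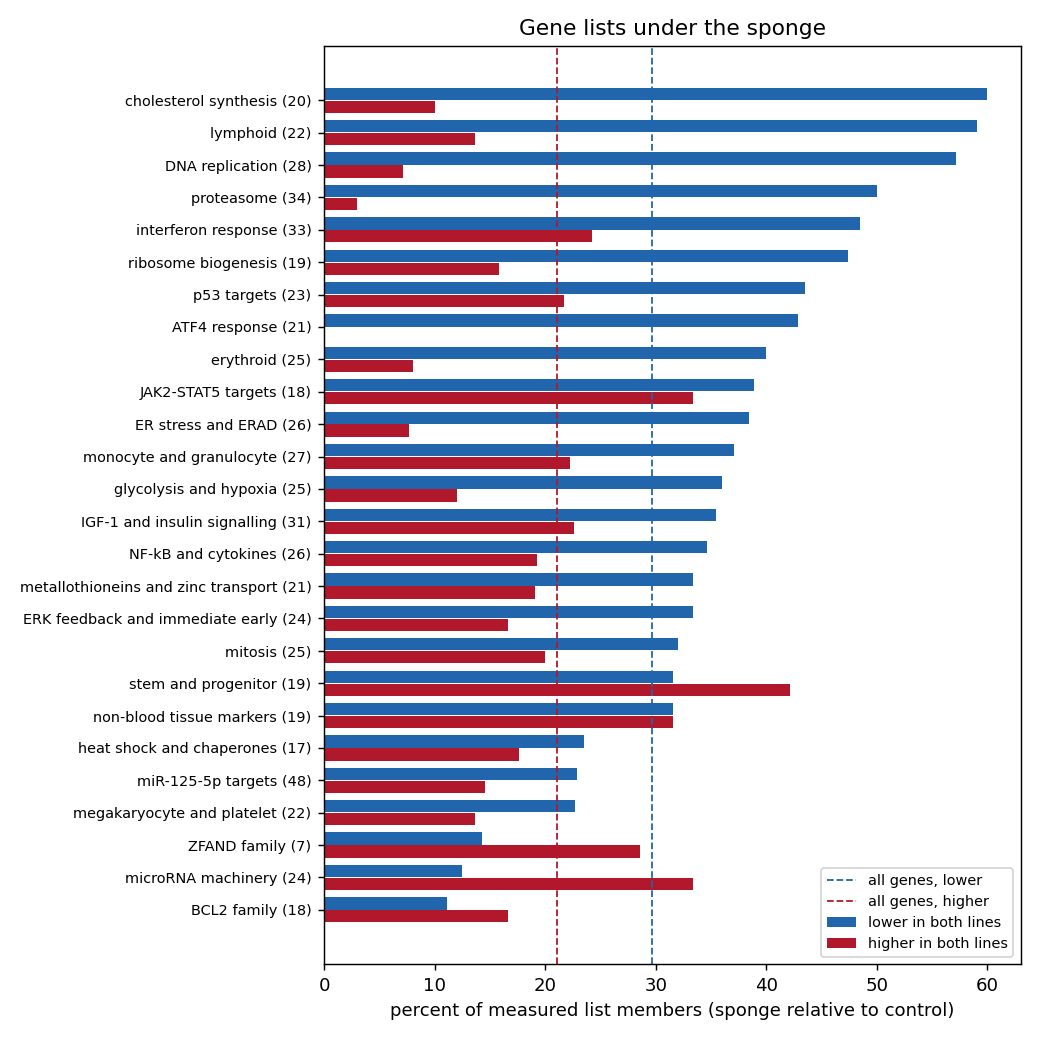
Percent of measured members that were higher (red) or lower (blue) in both lines under the sponge relative to control for 26 gene lists, with the number measured in brackets; dashed lines give all genes, 21.1% higher and 29.7% lower. Lower shares of 50% or more stand for cholesterol synthesis, lymphoid, DNA replication and proteasome genes, and none of their members passed the test.

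No stress or metabolic list held a called member, and several had more members lower in both lines than the 29.7% of all genes. That share covers genes of every level, with a median level of 5.55. The ATF4, cholesterol and endoplasmic reticulum stress lists had median levels of 7.58, 7.58 and 7.92. All genes at levels from 7 to 8 had a median of -0.07 in SET2, and shares at a matched level were not tested. Of 21 targets of the amino acid stress factor ATF4, 9 were lower in both lines (42.9%) and none higher, with a median of -0.12. SESN2, a sestrin that restrains mTOR signalling, averaged 7.59 and 5.38 under the sponge, against 7.81 and 6.14 in the control, or -0.49 ± 0.16 (SE), although its brightest probe set was at 0.05 in SET2. ATF3, a stress transcription factor, read 5.18 and 4.73 against 5.51 and 5.24. The sponge arrays lay below the control array of their own line for both genes. Of 20 genes of cholesterol synthesis, 12 were lower in both lines (60%) and 2 higher (10%). FDPS, farnesyl diphosphate synthase, was at 6.91 and 7.94 under the sponge against 7.54 and 8.19 in the control, or -0.44 ± 0.14 (SE). HSD17B7 went the other way, with 5.81 and 6.26 under the sponge against 5.04 and 5.58 in the control, or 0.72 ± 0.12 (SE). Its 5 probe sets did not move together: the change in HEL came mostly from 16673116, at 3.05 in HEL and 0.27 in SET2, and that in SET2 from 16673107, at -0.07 in HEL and 2.84 in SET2. The SE of HSD17B7 does not count this spread between probe sets. Endoplasmic reticulum stress genes were lower in both lines for 10 of 26 (38.5%) and higher for 2 (7.69%), with PDIA4 at -0.18 and PDIA3 at 0.21. Among 17 heat shock genes DNAJB4, a co-chaperone, differed by 0.70 in HEL but by -0.30 in SET2, and HSPA5, the chaperone BiP, averaged -0.14; 3 were higher in both lines and 4 lower (23.5%), with a median of 0.03.

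Growth and survival lists were mixed, beside 21.1% of all genes higher in both lines and 29.7% lower. DNA replication genes were lower in both lines for 16 of 28 (57.1%), led by FEN1, the flap endonuclease, at -0.27 ± 0.13 (SE), and GINS2, a helicase subunit, at -0.24 ± 0.13 (SE). Genes of mitosis were divided, with 5 of 25 higher in both and 8 lower, CENPE at 0.28 and BIRC5 at -0.24. BIRC5 was at -0.39 in HEL and -0.09 in SET2. In the BCL2 family, BCL2L11, the pro-apoptotic protein BIM, read 7.12 and 6.26 under the sponge against 6.72 and 5.99 in the control, or 0.33 ± 0.12 (SE). BIK, another pro-apoptotic member, was at 0.32 ± 0.12 (SE), whereas BAX stood at -0.19 and 3 of 18 members were higher in both lines against 2 lower. JAK2-STAT5 targets were higher in both lines for 6 of 18 (33.3%) and lower for 7 (38.9%). The feedback inhibitor SOCS1 was at 0.12 and the repressor BCL6 at -0.26 ± 0.13 (SE). Of 23 p53 targets, 10 were lower in both lines, with C12orf5, also known as TIGAR, at -0.45 ± 0.12 (SE), while MDM2 and CDKN1A were at 0.15 and 0.13. PES1, a ribosome biogenesis factor, read 6.14 and 6.17 under the sponge against 6.37 and 6.78 in the control. Among glycolysis and hypoxia genes, CA9 and NDRG1 were lowest at -0.32 and -0.26.

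Immune and cytokine genes included both directions. CCL3, a chemokine, read 4.35 and 4.61 under the sponge, against 5.16 and 4.97 in the control, and IL8 (also CXCL8) read 3.56 and 4.65 against 3.98 and 5.32. CXCL1, another chemokine, went the other way with 4.28 and 3.72 under the sponge against 3.39 and 3.49 in the control. REL, an NF-kB subunit, read 7.84 and 8.21 under the sponge against 7.27 and 7.94 in the control. The average differences of these 4 genes were -0.59, -0.55, 0.56 and 0.42, each with an unadjusted p under 0.05 and none called. Of 33 interferon response genes 16 were lower in both lines (48.5%) and 8 higher (24.2%), beside 29.7% and 21.1% of all genes. IFIT1 was at -0.44 ± 0.13 (SE) and IFITM3, which restricts viral entry, at -0.40 ± 0.12 (SE), while USP18 and BST2 were at 0.29 and 0.28.

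No lineage marker was called, and the shares below stand beside 21.1% of all genes higher in both lines and 29.7% lower. In bulk RNA, fewer cells of a kind and less RNA per cell cannot be told apart. Of 25 erythroid genes 10 were lower in both lines (40%), with HBE1, embryonic globin, at 10.31 and 5.02 under the sponge against 10.49 and 5.64 in the control, and RHD at -0.30 ± 0.13 (SE). Among 22 megakaryocyte and platelet genes, SELP, platelet selectin, was at -0.29 ± 0.13 (SE) and GP6, a collagen receptor, at 0.16. Monocyte and granulocyte genes were higher in both lines for 6 of 27 and lower for 10, with S100A9 at 0.21 and TYROBP at -0.25. Stem and progenitor genes had 8 of 19 higher in both lines (42.1%) and 6 lower, with MLLT3 at 0.29 and BMI1 at -0.27; their median was -0.10 in HEL and 0.10 in SET2. Lymphoid markers, which should be low in these cells, had 13 of 22 lower in both lines (59.1%), with PRF1 at -0.40 and BLK at 0.22. Markers of tissues outside blood had 6 of 19 in each direction, with MYH7 at 0.26 and GFAP at -0.31. Zinc genes included MT1F at -0.55 ± 0.12 (SE) on 2 probe sets, 1 higher and 1 lower in both lines, whose near-identical relatives can share signal, and the zinc transporter SLC39A7 at 7.69 and 7.70 under the sponge against 8.17 and 8.06 in the control. SLC39A7 was lower in both lines on 73 of its 85 probe sets, but these held 15 distinct profiles, of which 13 were lower in both. The average difference of SLC39A7 was -0.42 ± 0.12 (SE) with an unadjusted p of 0.013. Among regulators of ERK feedback, SPRED2 was at 0.23 and PHLDA1 at -0.32.

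Ranked by the smaller of the 2 line changes among the 7934 well-covered genes, the upper end was led by MAPK8, the stress-activated kinase JNK. MAPK8 averaged 6.48 in sponge HEL and 7.40 in sponge SET2, against 6.10 and 6.99 in the control, or 0.39 ± 0.12 (SE). The IGF1R shRNA arrays stood higher still at 6.68 and 7.51. The median probe-set level of MAPK8 on each array gave a difference of -0.24, so its sign depended on how its 15 probe sets were joined. Taken singly, 6 of them were higher in both lines and 1 was lower. CARNS1, carnosine synthase, was at 0.40 ± 0.12 (SE) with 8 of 14 probe sets higher in both lines. KCNQ5, a potassium channel, was at 0.38 ± 0.12 (SE) with 9 of 21. CALML6, ZDHHC1, NAP1L1, NACAD, ARHGAP11A, RGMB and ZNF345 followed, between 0.35 and 0.41. Of these, NAP1L1, a histone chaperone, turned to -0.26 on its brightest probe set. ARHGAP11A turned to -0.02 by the median probe-set level of each array. RGMB, a co-receptor for bone morphogenetic proteins, turned to -0.085 on its brighter probe sets. Without control HEL, in fits that kept the IGF1R shRNA arrays, NAP1L1 was at 0.24 and ARHGAP11A at 0.21. In SET2 alone they were at 0.35 and 0.33.

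The lower end was led by NEURL4, a centriolar partner of ubiquitin ligases. NEURL4 averaged 5.78 and 5.81 under the sponge, 6.15 and 6.03 with IGF1R shRNA and 6.33 and 6.52 in the control. The sponge arrays were the lowest of the 6, and 10 of 11 probe sets were lower in both lines, for an average of -0.63 ± 0.13 (SE). The 1 probe set that went the other way, at 0.19, was the brightest. ADPRHL2 (now ADPRS), which removes ADP-ribose from proteins, was at -0.56 ± 0.13 (SE), and TM4SF1, a surface protein, at -0.50 ± 0.13 (SE). TM4SF1 was at -0.08 without control SET2 and at -0.91 without control HEL, in fits that kept the IGF1R shRNA arrays. In fits of the same kind CALML4 was at -0.04 without sponge HEL, -0.06 without control SET2, -0.75 without control HEL and -0.77 without sponge SET2. ADPRHL2 was at -0.35 without sponge HEL. Within HEL and SET2, CALML4 was at -0.42 and -0.39, TM4SF1 at -0.38 and -0.61 and ADPRHL2 at -0.67 and -0.45. TNNT1, KDELC1 (now POGLUT2), RINL, TMEM106C, CALML4, CYP2R1 and MVP lay between -0.46 and -0.40. KDELC1 was lower in both lines on 10 of 11 probe sets and CYP2R1, a vitamin D hydroxylase, on 11 of 15. TNNT1 and MVP turned to 0.005 and 0.17 on their brightest probe set. By the median probe-set level of each array KDELC1 and CALML4 turned to 0.025 and 0.065. That measure compares levels and is not a median of probe-set changes, and CALML4 was lower in both lines on 6 of its 9 probe sets. All 20 ranked genes had an adjusted p of 0.947 by limma.

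Changes within single lines have no replicate check. Over all genes, in HEL 34 genes were at least 2-fold higher (0.152%) and 34 at least 2-fold lower (0.152%), and in SET2 40 were higher (0.179%) and 21 lower (0.0941%). None of these was among the 8092 genes with at least 8 probe sets and a level at or above the median gene, to which the genes named next belong. MAP3K2, a kinase upstream of MAP kinases, averaged 7.56 in sponge HEL against 6.64 in control HEL, and 7.31 in sponge SET2 against 7.25 in control SET2. IGF1R shRNA HEL stood at 7.75, above sponge HEL, so control HEL was the low array of that line. SLCO4C1, an organic anion transporter, was at 0.90 in HEL and -0.18 in SET2. MIPEP, a mitochondrial peptidase, was at -0.76 in HEL and -0.23 in SET2, followed in HEL by HCG15 at -0.69, PJA1 at -0.68, ADPRHL2 at -0.67 and TRMT5 at -0.67. In SET2 the highest were PLXNA1, a semaphorin receptor, at 0.65, ZDHHC24 at 0.54, FSD1 at 0.51 and FAM86B3P at 0.51, the last a pseudogene with close relatives. The lowest in SET2 besides SESN2 and NEURL4 were GCH1, the first enzyme of tetrahydrobiopterin synthesis, at -0.70, TIMM17B, a subunit of mitochondrial import, at -0.69 and LY6G6F at -0.66. The 15 probe sets of HCG15 held 4 distinct profiles and the 8 of LY6G6F held 2, so both reached the minimum of 8 probe sets through repeated values. Several of these single-line values depended on how probe sets were joined. On the brightest probe set ZNF772 and DNAJB4 were at -0.20 and -0.49 in HEL and PLXNA1 at 0.00 in SET2. By the median probe-set level of each array TRMT5 was at 0.32 in HEL and TMEM258 at -0.31 in SET2.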

How the data were processed

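Each line and treatment gave 1 array of total RNA. The authors deposited log2 signals per probe set. Affymetrix Expression Console is the tool that the submitters' processing notes name. Summarisation, build and version are not given in the sources used here. Of 352859 probe sets, 259224 had a single gene symbol in the platform annotation, 13116 several and 80519 none; single-symbol probe sets were averaged per gene, which gave 22320 genes, of which 22255 matched a RefSeq symbol or synonym.

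Sponge and control were compared with limma 3.58.1 (R 4.3.3), lmFit and eBayes, with the cell line as a block, 2-sided, with Benjamini-Hochberg adjustment over all genes. The fit had 1 residual degree of freedom and 5.65 prior degrees of freedom, and the code was tested on simulated data. Each SE is therefore moderated and rests mostly on the spread pooled over all genes, not on that of the gene alone. Ranking by the smaller of the 2 line changes favours genes whose lines agree, so the SE of a ranked gene is no separate check. The number of arrays limits the precision. The replicate number is the cell line, which pairs the arrays; deviations of same-line arrays from their group means correlated at 0.884.

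Members and gene lists were chosen with earlier results of these data known, and the lists were written from memory of the field, so they are described by counts and medians without a test. Named genes are IGF1R and ZFAND2B; the 10 genes in each direction with the largest smaller-of-2-lines change among genes with at least 8 probe sets and a level at or above the median gene (5.55), small RNA and placeholder symbols left out; the 5 highest and 5 lowest in each line; the 2 highest and 2 lowest of each list, and the whole ZFAND family; the 5 smallest p; and the miR-125 loci. Alternatives were all 6 arrays, no block, other ways to join probe sets, dim genes left out, quantile normalization, median centring and each array left out. After the data had been seen, a fit over all probe sets other level filters on probe sets, and averages of PGK1 and LEPREL2 without single probe sets were added. Sequences are from RefSeq, GRCh38.p14.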

Additional observations from a re-analysis of the deposited data

Results flagged for a closer look

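Several genes named above stood on opposite sides of 0 in the 2 lines, with 1 array per line and treatment, so the difference between lines was not tested. DNAJB4 was at 0.70 in HEL and -0.30 in SET2, SLCO4C1 at 0.90 and -0.18, UBLCP1 at 0.74 and -0.17 and ZNF772 at 0.75 and -0.25. Control HEL was the lowest HEL array for DNAJB4, UBLCP1 and ZNF772. In the other direction, FSD1 was at -0.17 in HEL and 0.51 in SET2 and TMEM258 at -0.32 and 0.49. LY6G6F was at 0.13 in HEL and -0.66 in SET2. The median of the stem and progenitor list was -0.10 in HEL and 0.10 in SET2.

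Probe sets with no listed gene stood above both control arrays although no comparison by gene used them. The profile of 17118489, 17118611 and 17118623 averaged 6.58 above control on the log2 scale, 17118547 averaged 5.26 above and 17118541 averaged 4.93 above. The profile of 17026903, 17036869 and 17042130 averaged 1.13 above control. Which RNA they read was not tested.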

How the results depend on the processing

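Calls at an adjusted p of 0.05 stayed at 0 under every alternative run except quantile normalization, which gave 3 higher and 2 lower genes. The count at an unadjusted p under 0.05 (1096) was 412 with all 6 arrays, 85 with no replicate block, 630 of 11160 with dim genes left out and 222 to 431 when 1 array was left out. The count of genes at least 2-fold apart grew when probe sets were joined by their median, by the brightest or over brighter ones only: to 142, 429 and 116 higher in HEL (34), 154, 341 and 90 lower in HEL (34), 115, 417 and 133 higher in SET2 (40) and 152, 279 and 80 lower in SET2 (21).

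Medians of lists moved as follows. With the median probe-set level of each array they were -0.14 for JAK2-STAT5 targets, -0.09 for ribosome biogenesis, -0.20 for glycolysis, -0.205 for lymphoid and 0.0525 for non-blood markers. With the brightest they were -0.125 for p53 targets, -0.125 for interferon, -0.095 for heat shock, -0.14 for glycolysis, -0.12 for ERK feedback, 0.08 for lymphoid, -0.095 for stem and 0.09 for non-blood markers. With brighter probe sets they were 0.027 for monocyte and -0.10 for stem genes. Leaving out an array dropped its line, so the list medians then were those of the other line alone and not a separate check. In the order SET2 and HEL, they were -0.17 and 0.01 for p53 targets, -0.19 and -0.11 for ATF4 and -0.081 and -0.008 for NF-kB. Heat shock stood at -0.036 and 0.052, mitosis at -0.091 and 0.046 and glycolysis at -0.15 and 0.01. ERK feedback stood at -0.078 and 0.016, megakaryocyte genes at -0.094 and 0.031 and stem genes at 0.10 and -0.096.

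Signs turned for IGF1R (-0.005), ZFAND2B (0.025), NAP1L1 (-0.26), NEURL4 (0.19), TNNT1 (0.005) and MVP (0.17) on the brightest probe set, and for RGMB (-0.085) on brighter probe sets. By the median probe-set level of each array they turned for MAPK8 (-0.24), ARHGAP11A (-0.02), KDELC1 (0.025) and CALML4 (0.065). When 1 array was left out ZFAND2B ran from -0.23 to 0.088, TM4SF1 from -0.91 to -0.08, CALML4 from -0.77 to -0.04 and SENP3-EIF4A1 from -2.13 to -0.83. Those gene fits kept the IGF1R shRNA arrays, so their values depend on these arrays too. Without 17105050 PGK1 was at 0.067, and without 16747473 LEPREL2 was at -0.20. The cause of these changes was not tested beyond the probe sets joined and the arrays used.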
